A study of Homo sapiens with 12 samples.

Results

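The genes described here are 10 regulators of fetal growth: LIN28A, LIN28B, HMGA2, IGF2BP1, IGF2BP2, IGF2BP3, IGF2, H19, DLK1 and MEG3. They were taken by gene symbol from the 61806 genes of the expression table. Bulk RNA was sequenced from the human embryonic stem cell line H1, without genetic modification (WT), after differentiation to mesendoderm with the WNT activator CHIR99021 and then toward cardiomyocytes. NP-IWP2 cells remained in static culture and received IWP2, an inhibitor of WNT secretion. P-DF cells were dissociated and re-plated on Day 2 and differentiated spontaneously in DF medium, with no IWP2. For P-IWP2, passaging on Day 2 was combined with IWP2. Each of these treatments had 2 libraries on Day 12 and 2 on Day 16, which makes 12 libraries in 6 groups. All of them come from 1 cell line, and the labels do not say whether the libraries of a group came from separate cultures, so the p-values below measure only the spread between these libraries, which may be technical.

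LIN28A and LIN28B are RNA-binding proteins of stem cells and embryonic tissues. They bind the precursors of the let-7 microRNAs and block their maturation, and let-7 in turn represses LIN28B itself, the chromatin protein HMGA2 and the IGF2 mRNA-binding proteins IGF2BP1 to IGF2BP3. IGF2, the fetal insulin-like growth factor, and the long noncoding RNA H19 are neighbors in an imprinted domain of chromosome 11. DLK1, a transmembrane inhibitor of differentiation related to the Notch ligands, and the long noncoding RNA MEG3 lie in another imprinted domain, on chromosome 14. In each domain the growth-promoting gene is expressed from the paternal allele and the noncoding RNA from the maternal allele. Most of these genes are high in the fetus and are silenced in many tissues after birth.

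The library totals were between 14885589 and 19176239 counts, with a median of 16452289, so that 3 counts, the limit that a count of 0 allows, correspond to 0.156 to 0.202 CPM (counting error only). Levels are given as FPKM, the count scaled to exon length and library total, which allows different genes to be compared. The labels name the cells as embryonic stem cells, but at these days NANOG was between 0 and 0.02 FPKM and POU5F1 between 0 and 0.05 FPKM, while the 10 cardiomyocyte markers summed to between 2296 and 9328 FPKM in every library. Of the other pluripotent markers, SOX2 was between 0 and 0.77 FPKM, ZFP42 between 0 and 2.09 FPKM and DPPA4 between 0.14 and 3.88 FPKM. TDGF1 was between 0.21 and 28.1 FPKM. Markers of other cell types differed with treatment. The 12 hepatic or endoderm markers summed to between 484 and 1010 FPKM in the NP-IWP2 libraries and to between 5.96 and 20.1 FPKM in the passaged ones. For the 9 stromal markers, the NP-IWP2 libraries summed to between 799 and 1415 FPKM and the passaged libraries to between 24.4 and 44.6 FPKM, with 1 exception. This was the Day 12 P-IWP2 library labelled replicate 5, which had 761 FPKM of stromal and 139.9 FPKM of epicardial markers, but 8.45 FPKM of hepatic markers and the lowest cardiomyocyte sum. Its correlation with replicate 6 of the same group was 0.917 over log2 CPM, against 0.985 to 0.991 for the replicate pairs of the other groups. In bulk RNA, fewer cells of a type and less RNA per cell cannot be told apart. Tests of the 10 genes, and counts of the gene lists where they changed, are therefore also given without replicate 5. That leaves P-IWP2 a single library on Day 12, so values of P-IWP2 without replicate 6 are given beside them for the genes tested.

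The sequences that link these genes are the let-7 microRNAs, which were not measured here, and their target sites. The 9 mature sequences of the family in RefSeq (GRCh38.p14), which come from 12 genes, are shown because all 9 share 1 seed. Bases 2 to 8, the seed, are in capitals.
let-7a-5p: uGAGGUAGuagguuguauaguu
let-7b-5p: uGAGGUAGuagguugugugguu
let-7c-5p: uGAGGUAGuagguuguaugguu
let-7d-5p: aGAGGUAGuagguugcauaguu
let-7e-5p: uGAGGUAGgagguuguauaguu
let-7f-5p: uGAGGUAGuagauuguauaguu
let-7g-5p: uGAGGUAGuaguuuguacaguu
let-7i-5p: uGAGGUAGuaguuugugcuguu
miR-98-5p: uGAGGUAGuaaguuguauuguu

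The match to this seed, CTACCTC, was searched on the transcript's own strand in the 3′UTRs of canonical coding transcripts of GENCODE release 44. It was found in 9.7% of 19217 3′UTRs. LIN28B, HMGA2 and IGF2BP1 held 4 matches each, which 0.16%, 0.07% and 0.42% of 3′UTRs within 25% of their length also reached. LIN28A, IGF2BP2 and IGF2BP3 held 1 match each, as did at least 12.1% of 3′UTRs of like length. IGF2 and DLK1 held 0. The first match of each of the 6 genes is shown with the match in capitals, so that the genes that moved in these cells can be set against those that did not. A match describes the sequence and is not evidence that let-7 acted on it here.
LIN28A: gcacagcctattgaaCTACCTCatttttgc
LIN28B: acccggttgcaaagtCTACCTCatgcaagt
HMGA2: gccaacgttcgatttCTACCTCagcagcag
IGF2BP1: tgtgtgcgaagtaaaCTACCTCaaggtatg
IGF2BP2: aacacacagaagaagCTACCTCaggtgttt
IGF2BP3: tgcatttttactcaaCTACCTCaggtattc

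In GRCh38, these stretches of 3′UTR lie at chr1:26427348-26427377 (plus strand) for LIN28A, chr6:105078812-105078841 (plus strand) for LIN28B and chr12:65963298-65963327 (plus strand) for HMGA2. Those of the IGF2BP genes lie at chr17:49051061-49051090 (plus strand) for IGF2BP1, chr3:185644213-185644242 (minus strand) for IGF2BP2 and chr7:23311788-23311817 (minus strand) for IGF2BP3.

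The first comparison was of passaged with static cells. P-IWP2 and NP-IWP2 both received IWP2 and differed in passaging. In the paper, passaging also means re-plating at a split ratio, in medium with a ROCK inhibitor and optional insulin. These parts cannot be told apart from dissociation here. P-DF differed from NP-IWP2 in passaging and in the absence of IWP2, which cannot be told apart in that comparison. In P-DF cells, LIN28A, IGF2, H19 and DLK1 were lower than in NP-IWP2 cells on Day 12, and on Day 16 LIN28B was lower as well. In P-IWP2 cells on Day 16, LIN28B, HMGA2, H19 and DLK1 were lower. None of the IGF2BP genes passed the test. Of the 10 genes, 9 passed the filter on low counts, and MEG3 did not.

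**Figure D1:**
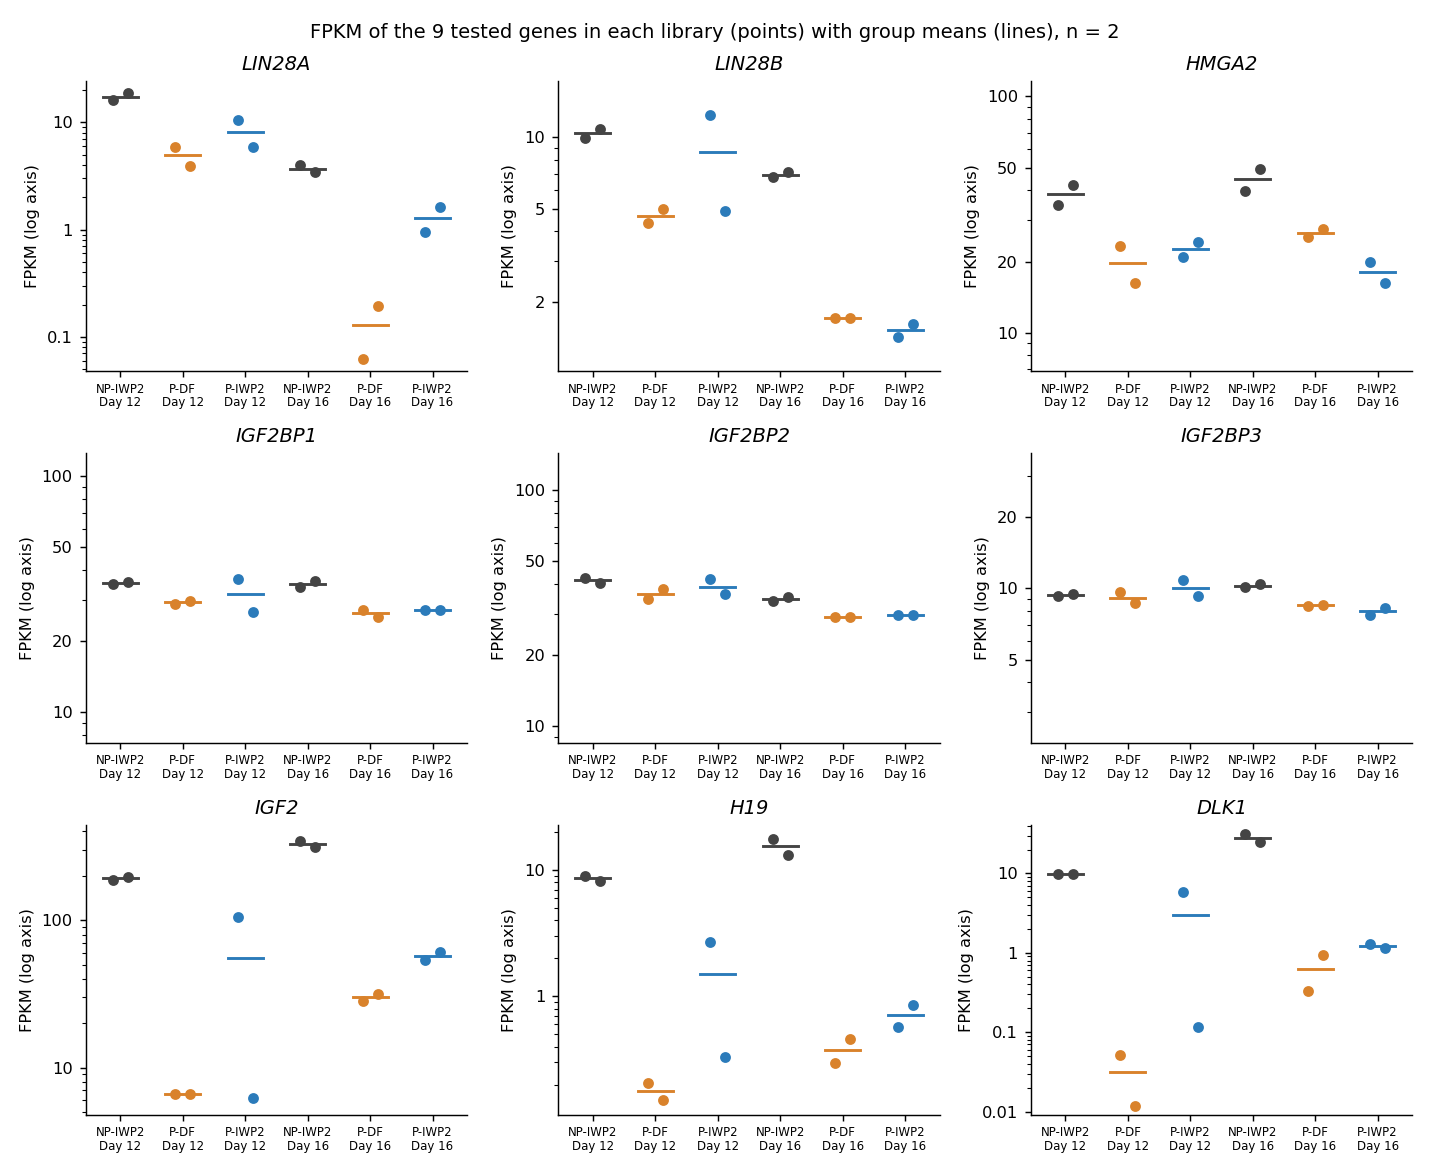
Each panel plots FPKM on a log axis for 1 gene, with 1 point per library and a line at the mean of the 2 libraries of a group. IGF2, H19 and DLK1 were highest in both NP-IWP2 groups, LIN28A spanned 0.06 to 18.7 FPKM, and the IGF2BP panels look nearly flat. Axes of genes with a narrow range were widened beyond the data, which flattens those panels.

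LIN28A (ENSG00000131914, chromosome 1, 26410817 to 26429728, plus strand of hg38) had 16.1 and 18.7 FPKM in the NP-IWP2 libraries of Day 12. P-DF cells had 5.88 and 3.96 FPKM on that day, and P-IWP2 cells had 10.5 and 5.84 FPKM. All 4 passaged libraries of Day 12 were thus below both static ones. By Day 16, NP-IWP2 cells were at 3.97 and 3.43 FPKM, P-IWP2 cells at 0.95 and 1.61 FPKM, and P-DF cells at 0.06 and 0.20 FPKM, or 4 and 14 counts. The 3 treatments did not overlap on Day 16, and the static libraries of Day 16 overlapped with P-DF of Day 12.

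For LIN28A, the log2 fold change of P-DF against NP-IWP2 was -1.73 ± 0.37 (SE) on Day 12 (adjusted p = 0.037, edgeR) and -4.57 ± 0.50 on Day 16 (adjusted p = 0.00079, edgeR). On Day 16 the summed counts of NP-IWP2, scaled to library totals, stood 28.04-fold over those of P-DF, with a 95% exact counting interval of 17.6 to 47.7. Without P-DF replicate 4 of Day 16 the value was -5.64, and it was still called. P-IWP2 against NP-IWP2 gave -1.13 ± 0.36 on Day 12 (adjusted p = 0.21) and -1.24 ± 0.38 on Day 16 (adjusted p = 0.053), neither past the threshold of 0.05. Without replicate 5, the Day 16 value passed it, at -1.25 (adjusted p = 0.0044). The Day 12 value, then from a single P-IWP2 library, was -1.48, or -0.86 without replicate 6 instead.

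LIN28B (ENSG00000187772, chromosome 6, 104936616 to 105083332, plus strand) was at 9.92 and 10.9 FPKM in static cells on Day 12, against 4.34 and 5.00 FPKM in P-DF. The P-IWP2 libraries of that day lay on either side, at 12.5 FPKM in replicate 5 and 4.86 FPKM in replicate 6. On Day 16, NP-IWP2 cells had 6.77 and 7.16 FPKM, P-DF cells 1.72 FPKM in both libraries, and P-IWP2 cells 1.42 and 1.62 FPKM. Passaged and static libraries did not overlap on Day 16, and the P-DF and P-IWP2 values lay close together.

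On Day 16, LIN28B had a log2 fold change of -1.78 ± 0.30 in P-DF (adjusted p = 0.0060, edgeR) and of -1.91 ± 0.30 in P-IWP2 (adjusted p = 0.0043). On Day 12, the differences of -1.07 ± 0.29 in P-DF (adjusted p = 0.075) and -0.33 ± 0.29 in P-IWP2 (adjusted p = 0.78) did not pass. When replicate 5 was left out, the value of P-DF was -1.07 (adjusted p = 3.79e-05). That of P-IWP2, then from a single library, was -1.005, or 0.13 when replicate 6 was left out instead. The antisense gene LIN28B-AS1, which overlaps LIN28B, had 1 to 20 counts per library. The strand setting of the counting is not given in the sources used here, so reads of overlapping genes on opposite strands cannot be told apart.

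The balance of the paralogs, which was not tested, also differed between libraries. In FPKM, which is per length, LIN28A was 1.62 and 1.71 times LIN28B in the static libraries of Day 12, and 0.586 and 0.479 times on Day 16. In P-IWP2 the ratio was 0.840 and 1.20 on Day 12 and 0.665 and 0.994 on Day 16. In P-DF it went from 1.35 and 0.792 to 0.0362 and 0.114. The P-DF libraries of Day 16 were the lowest of all 12, and the ratio of NP-IWP2 libraries did not overlap between the days.

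**Figure D2:**
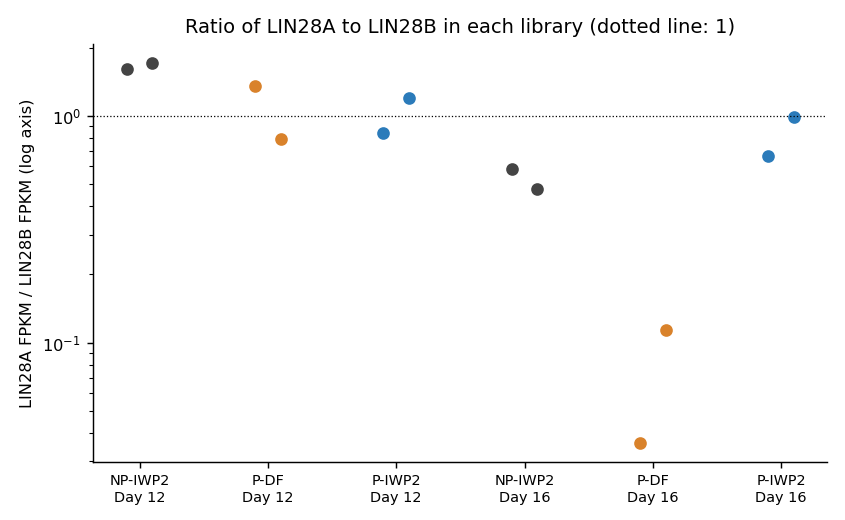
The ratio of LIN28A FPKM to LIN28B FPKM is plotted on a log axis for each of the 12 libraries by group, with a dotted line at 1. The Day 16 P-DF libraries, at 0.0362 and 0.114, stand below all others.

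HMGA2 (ENSG00000149948, chromosome 12, 65824460 to 65966291, plus strand), an architectural chromatin factor and a well known let-7 target, had 34.9 and 42.2 FPKM in NP-IWP2 on Day 12. P-DF cells had 23.3 and 16.2 FPKM and P-IWP2 cells 20.9 and 24.3 FPKM. On Day 16 the values were 40.0 and 49.3 FPKM in NP-IWP2, 25.4 and 27.6 FPKM in P-DF, and 20.0 and 16.3 FPKM in P-IWP2. In FPKM, every passaged library was below both static libraries of the same day.

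The difference in HMGA2 passed the threshold in P-IWP2 on Day 16, at -1.02 ± 0.22 (adjusted p = 0.014, edgeR). The P-DF values were -0.87 ± 0.22 on Day 12 (adjusted p = 0.059) and -0.52 ± 0.22 on Day 16 (adjusted p = 0.14), and P-IWP2 on Day 12 gave -0.78 ± 0.22 (adjusted p = 0.15). Without replicate 5, both P-DF values passed (adjusted p = 0.0021 and 0.028). P-IWP2 on Day 12, then a single library, gave -0.57, or -1.01 without replicate 6 instead. RPSAP52 and HMGA2-AS1, which overlap HMGA2 on the opposite strand, had at most 42 and 38 counts.

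The IGF2 mRNA-binding proteins control the stability and translation of IGF2 and other mRNAs. IGF2BP1 (ENSG00000159217, chromosome 17, 48997385 to 49056145, plus strand) ranged from 25.5 to 36.7 FPKM over the 12 libraries. IGF2BP2 (ENSG00000073792, chromosome 3, 185643130 to 185825042, minus strand) ranged from 28.9 to 42.5 FPKM. IGF2BP3 (ENSG00000136231, chromosome 7, 23310209 to 23470491, minus strand) ranged from 7.71 to 10.8 FPKM. In each library the sum of the 3 genes was between 63.2 and 89.5 FPKM, with the highest value in replicate 5.

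None of the 3 IGF2BP genes passed the threshold in any of the 12 comparisons with edgeR. At an unadjusted p under 0.05, only IGF2BP1 in P-DF over both days did so, at -0.18 ± 0.063 (adjusted p = 0.051). That value passed with DESeq2, limma-voom and library totals, with a lowest adjusted p of 0.0040. When passaged and static cells of the same day were compared, the log2 fold changes of the 3 genes lay between -0.19 and 0.075, with SE of 0.10 to 0.12. When counts were scaled to library totals in place of TMM (the trimmed mean of log ratios between libraries), the median over all genes itself shifted on Day 16, to -0.25 for P-DF and -0.31 for P-IWP2, and the values of the 3 genes went to between -0.41 and -0.22. Under that scaling IGF2BP2 in P-IWP2 on Day 16 changed sign (-0.22), and so did IGF2BP3 in P-DF on Day 12 (-0.037). IGF2BP3 in P-IWP2 on Day 16 passed the threshold there, at -0.36, close to the shift of all genes.

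IGF2 (ENSG00000167244, chromosome 11, 2129112 to 2158391, minus strand) was the most abundant of the 10 genes in static cells. It had 187 and 197 FPKM in NP-IWP2 on Day 12, against 6.63 and 6.67 FPKM in P-DF. The P-IWP2 libraries of Day 12 differed 16.7-fold from each other, with 104 FPKM in replicate 5 and 6.25 FPKM in replicate 6. On Day 16, NP-IWP2 cells had 342 and 316 FPKM, P-IWP2 cells 53.8 and 60.5 FPKM, and P-DF cells 28.2 and 31.8 FPKM. The order on Day 16 was the same in every library, and no groups overlapped.

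In P-DF cells, IGF2 had a log2 fold change of -4.76 ± 0.94 on Day 12 (adjusted p = 0.029, edgeR) and of -3.23 ± 0.88 on Day 16 (adjusted p = 0.038). P-IWP2 cells gave -1.91 ± 0.83 on Day 12 (adjusted p = 0.42) and -2.25 ± 0.84 on Day 16 (adjusted p = 0.096). Without replicate 5, both P-DF values passed, and so did P-IWP2 on Day 16, at -2.25 ± 0.13 (adjusted p = 1.1e-07). P-IWP2 on Day 12, then a single library, was -4.85, or -1.01 without replicate 6 instead. The antisense gene IGF2-AS had 3 to 219 counts, and INS-IGF2, a read-through transcript that shares exons with IGF2, had 0 in every library.

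H19 (ENSG00000130600, chromosome 11, 1995166 to 2001470, minus strand in the table, a position that differs from GENCODE release 44, so that its FPKM rests on the table's gene length) had 469 and 388 counts in NP-IWP2 on Day 12, or 9.02 and 8.14 FPKM. P-DF had 9 and 7 counts, and P-IWP2 had 122 in replicate 5 and 16 in replicate 6. On Day 16 the static libraries had 978 and 618 counts, P-DF 14 and 24, and P-IWP2 30 and 48. All passaged libraries were below all static ones.

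The log2 fold change of H19 passed the threshold in P-DF on Day 12 (-5.48 ± 0.80, adjusted p = 0.0090, edgeR) and Day 16 (-5.11 ± 0.73, adjusted p = 0.0029) and in P-IWP2 on Day 16 (-4.15 ± 0.68, adjusted p = 0.0050). In P-IWP2 on Day 12 it was -2.60 ± 0.63 (adjusted p = 0.096). With a single P-IWP2 library kept, it was -4.59 without replicate 5 and -1.81 without replicate 6. IGF2 exceeded H19 19.5-fold and 24.0-fold in FPKM in the static libraries of Day 16, and between 69.4-fold and 94.5-fold in the passaged ones. On Day 12 the ratio was 20.8 and 24.2 in static cells, 31.9 and 44.3 in P-DF, and 39.0 in replicate 5 and 18.8 in replicate 6 of P-IWP2, so passaged and static cells overlapped on that day.

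DLK1 (ENSG00000185559, chromosome 14, 100725705 to 100738224, plus strand) showed the widest range. NP-IWP2 cells had 917 and 840 counts on Day 12 (9.79 and 9.78 FPKM), P-DF cells had 4 and 1 counts, and P-IWP2 cells had 486 in replicate 5 and 10 in replicate 6. On Day 16, static cells had 3177 and 2112 counts (31.7 and 25.0 FPKM), P-DF cells 28 and 88, and P-IWP2 cells 122 and 115. Passaged libraries were below static ones of the same day throughout.

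The log2 fold change of DLK1 was -8.15 ± 1.63 in P-DF on Day 12 (adjusted p = 0.030, edgeR), where 5 counts stood against 1757, a ratio of 317 after scaling to library totals, with a 95% exact counting interval of 135 to 976. Without P-DF replicate 3 or 4 it was -9.45 or -7.43, and the call was lost without any library other than the Day 12 P-IWP2 pair (adjusted p up to 0.23). On Day 16 it was -5.25 ± 1.16 in P-DF (adjusted p = 0.017), or -6.20 without P-DF replicate 4, and -4.28 ± 1.09 in P-IWP2 (adjusted p = 0.028). P-IWP2 on Day 12 gave -1.81 ± 0.98 (adjusted p = 0.55). With a single P-IWP2 library kept, it gave -6.30 without replicate 5 and -0.86 without replicate 6.

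MEG3 (ENSG00000214548, chromosome 14, 100779410 to 100861031, plus strand), the maternally expressed noncoding RNA next to DLK1, was near the detection limit in every library. Static cells had 6 and 5 counts on Day 12 and 4 and 5 on Day 16. P-DF cells had 1, 2, 0 and 3 counts, and P-IWP2 cells 6, 0, 5 and 0, with the days in that order. A difference in MEG3 was not detectable at this depth. DLK1 had 3177 counts in a library where MEG3 had 4.

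By count, 4 of the 9 genes tested were lower and 0 higher in P-DF on Day 12, where 4.01% of 19505 genes were called and 3.32% were called lower. On Day 16, 5 were lower and 0 higher in P-DF, against 15.3% of all genes called and 9.86% called lower. P-IWP2 had 0 of 9 on Day 12 (1.66% of all genes called, 1.33% lower; 4 of the 9 had an unadjusted p under 0.05) and 4 lower on Day 16 (17.1% of all genes, 9.95% lower). Both passaged groups were set against the same NP-IWP2 libraries.

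These counts depended on the Day 12 P-IWP2 pair, since all comparisons share 1 estimate of the spread. Without replicate 5, 6 genes were called lower in P-DF on either day (23% and 34.1% of all genes called) and 6 in P-IWP2 on Day 16 (36.4%). P-IWP2 on Day 12 then had a single library, so its count is left out. When instead any 1 of the other 10 libraries was left out, the count was 0 to 2 in P-DF on Day 12, 2 to 4 in P-DF on Day 16, 0 in P-IWP2 on Day 12 and 2 to 4 in P-IWP2 on Day 16. It was 0 in P-DF on Day 12 without NP-IWP2 replicate 1 or either P-DF library of that day, 2 in P-DF on Day 16 without either P-DF library of Day 16, and 2 in P-IWP2 on Day 16 without NP-IWP2 replicate 2 or either P-IWP2 library of Day 16. On Day 16, LIN28A and H19 in P-DF and LIN28B and H19 in P-IWP2 passed in every alternative, with adjusted p up to 0.014, 0.045, 0.039 and 0.045.

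**Figure D3:**
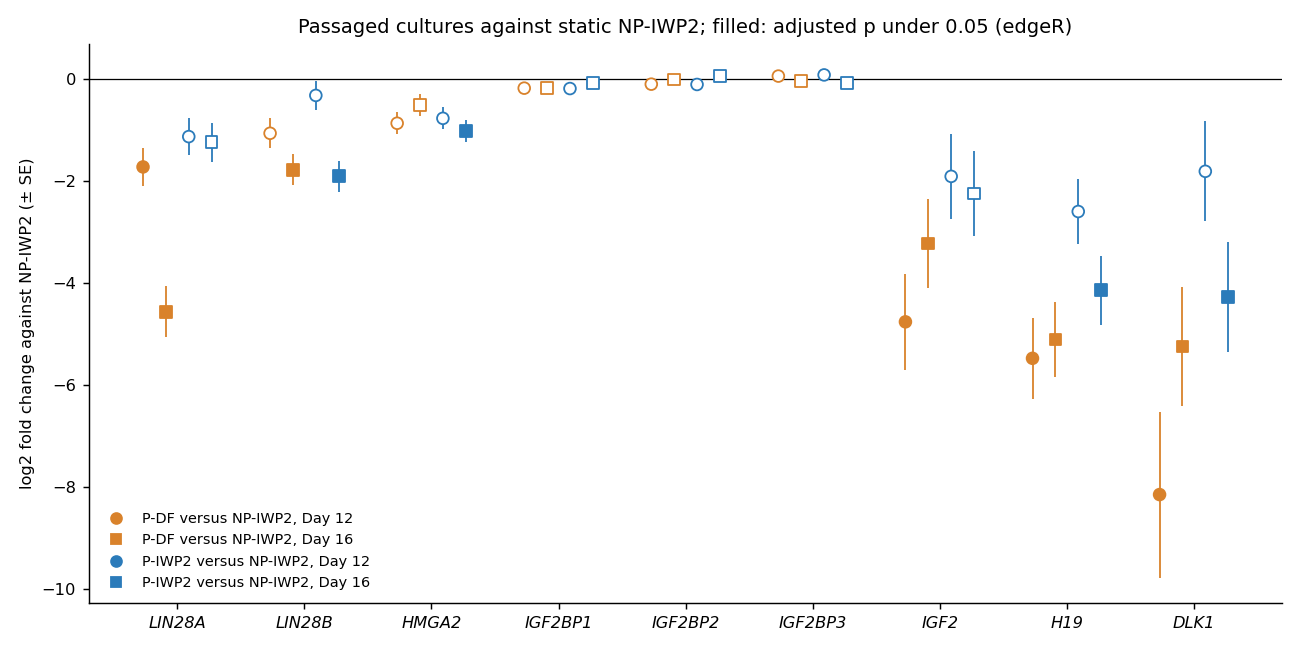
The log2 fold change against NP-IWP2 of the same day (± SE, edgeR, 12 libraries) is plotted for 9 genes, with circles for Day 12, squares for Day 16 and filled symbols for adjusted p under 0.05. H19 and DLK1 were lower by 4 or more in 3 of 4 comparisons, and the IGF2BP genes lie between -0.19 and 0.075.

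A model of the 8 NP-IWP2 and P-DF libraries alone, with the day as a second term, does not contain the P-IWP2 pair. In it 6 of 9 genes were lower in P-DF and 0 higher, where 34.4% of 17909 genes were called and 18.9% were called lower. DLK1 differed by -5.80 ± 0.43 (adjusted p = 1.43e-05, edgeR), H19 by -5.25 ± 0.20 (adjusted p = 3.94e-07) and IGF2 by -3.99 ± 0.30 (adjusted p = 1.84e-05). LIN28A differed by -2.54 ± 0.44 (adjusted p = 0.0022), LIN28B by -1.41 ± 0.14 (adjusted p = 9.27e-05) and HMGA2 by -0.69 ± 0.14 (adjusted p = 0.0044). All 6 kept their call when any 1 of the 8 libraries was left out, and DLK1 was -6.81 without P-DF replicate 4 of Day 16.

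Whether IWP2 mattered in passaged cells was examined by comparing P-IWP2 with P-DF. With edgeR, 0 of 9 genes and 0 of 19505 genes (0% called) passed on either day, although 4 and 2 of the 9 genes had an unadjusted p under 0.05 on Day 12 and Day 16. The value for LIN28A on Day 16 was 3.32 ± 0.51 (unadjusted p = 9.1e-05, adjusted p = 0.16), with 68 and 123 counts in P-IWP2 against 4 and 14 in P-DF. IGF2 was 0.98 ± 0.81 on that day (adjusted p = 0.82). Without replicate 5, LIN28A (adjusted p = 0.0044) and IGF2 (0.98 ± 0.13, adjusted p = 0.0035) passed, where 2.58% of all genes did. LIN28B gave -0.13 ± 0.31 (adjusted p = 0.96). On Day 12 the values of P-IWP2 rested on 2 libraries that disagreed. IGF2 was 2.85 ± 0.87 (adjusted p = 0.43) with both and -0.085 without replicate 5, where it was at 6.25 FPKM in P-IWP2 and 6.63 and 6.67 in P-DF. Leaving out replicate 6 instead gave 3.75, with IGF2 at 104 FPKM in replicate 5.

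The next comparison asked how the genes moved from Day 12 to Day 16 within each treatment. LIN28A fell in all 3 treatments, with log2 fold changes of -2.11 ± 0.37 in NP-IWP2 (adjusted p = 0.029, edgeR), -4.95 ± 0.50 in P-DF (adjusted p = 0.00081) and -2.22 ± 0.39 in P-IWP2 (adjusted p = 0.0052). LIN28B fell in P-DF (-1.18 ± 0.30, adjusted p = 0.033) and in P-IWP2 (-2.05 ± 0.31, adjusted p = 0.0029), and in NP-IWP2 its value was -0.47 ± 0.29 (adjusted p = 0.41). No other gene of the 9 was called. The count was 1 in NP-IWP2 (1.98% of all genes called), 2 in P-DF (13.6%) and 2 in P-IWP2 (27.0%). The call of LIN28A in NP-IWP2 was lost when any 1 of the 4 NP-IWP2 libraries was left out, that of LIN28B in P-DF when any 1 of the 8 NP-IWP2 or P-DF libraries was, and those in P-IWP2 in a model of its 4 libraries alone. LIN28A in P-DF was -6.02 without P-DF replicate 4 of Day 16, and LIN28B in P-IWP2 was -1.37 without replicate 5 of Day 12.

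IGF2 and DLK1 had higher values on Day 16 than on Day 12 in static and P-DF cells. IGF2 was at 187 and 197 FPKM in NP-IWP2 on Day 12 and at 342 and 316 on Day 16, and in P-DF it was at 6.63 and 6.67 and then at 28.2 and 31.8 FPKM. The changes of 0.89 ± 0.81 (adjusted p = 0.58, edgeR) and 2.43 ± 0.85 (adjusted p = 0.091) did not pass with all 12 libraries. Without replicate 5, IGF2 rose in NP-IWP2 (0.89 ± 0.13, adjusted p = 0.00071) and P-DF (2.43 ± 0.14, adjusted p = 2.83e-07), and its value in P-IWP2 was 3.50. The value of P-IWP2 then has a single library of Day 12, whose spread is taken from the other groups. Without replicate 6 instead, it was -0.34.

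DLK1 rose likewise without replicate 5, by 1.66 ± 0.23 in NP-IWP2 (adjusted p = 0.00054) and 4.57 ± 0.68 in P-DF (adjusted p = 0.00033). In P-IWP2, with a single library of Day 12, it was 3.68, or -1.77 without replicate 6 instead. With all libraries, the values were 1.66 ± 0.95 (adjusted p = 0.37) in NP-IWP2, 4.56 ± 1.85 (adjusted p = 0.13) in P-DF and -0.81 ± 1.01 (adjusted p = 0.57) in P-IWP2. The direction in P-IWP2 thus rested on replicate 5. H19 rose in NP-IWP2 (0.97 ± 0.20, adjusted p = 0.0070) without replicate 5, and in P-DF it was 1.34 ± 0.48 (adjusted p = 0.050), just outside the threshold. In P-IWP2 it was 1.41 without replicate 5 and -1.37 without replicate 6. HMGA2 rose in P-DF without replicate 5 (0.68 ± 0.17, adjusted p = 0.0083). In the model without replicate 5, 5 of 9 genes were called in NP-IWP2 and in P-DF, where 18.3% and 30.8% of all genes were called.

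**Figure D4:**
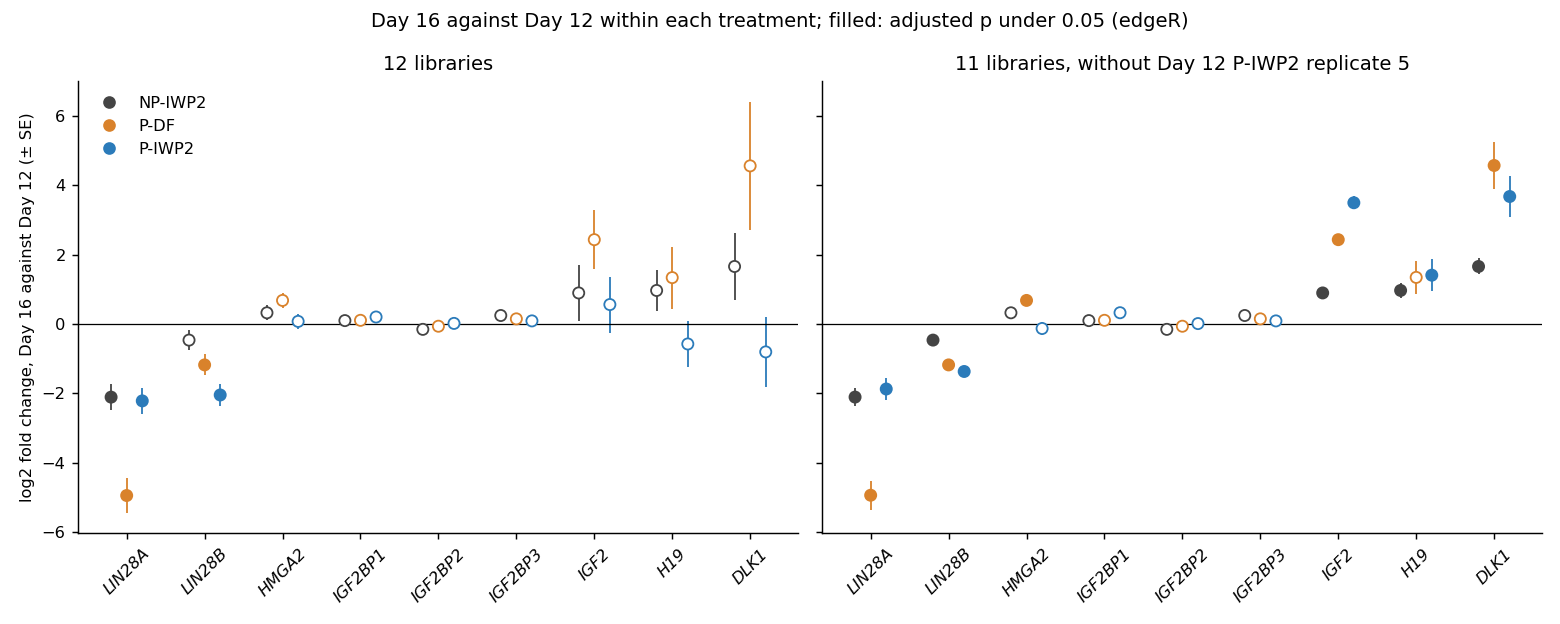
The log2 fold change of Day 16 against Day 12 (± SE, edgeR) is plotted for 9 genes in 3 treatments, with all 12 libraries on the left and without Day 12 P-IWP2 replicate 5 on the right, filled where the adjusted p was under 0.05. LIN28A lies below 0 in all treatments on both sides, and for IGF2 and DLK1 the error bars narrow and the P-IWP2 points move up on the right.

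Whether the difference from NP-IWP2 changed between the days was tested by the interaction of treatment and day. With all libraries, 0 of 9 genes were called for P-DF (0.482% of all genes) or P-IWP2 (1.84% of all genes), and 1 of 9 in each had an unadjusted p under 0.05. The interaction of LIN28A in P-DF was -2.84 ± 0.62 (adjusted p = 0.095, edgeR) and that of LIN28B in P-IWP2 was -1.58 ± 0.41 (adjusted p = 0.083). Without replicate 5, 4 genes passed for P-DF (8.09% of all genes), LIN28A (-2.83, adjusted p = 0.0060) and LIN28B (-0.72, adjusted p = 0.026) with a deeper deficit on Day 16, and IGF2 (1.54, adjusted p = 0.00043) and DLK1 (2.91, adjusted p = 0.047) with a smaller one. For P-IWP2, whose Day 12 group was then a single library, LIN28B gave -0.91 and IGF2 gave 2.60. Without replicate 6 instead, LIN28B gave -2.04 and IGF2 gave -1.24, so the direction of IGF2 rested on which library was kept.

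IGF2, H19 and DLK1 were compared with the markers of the other cell types in these cultures. In replicate 5, the hepatic or endoderm markers summed to 8.45 FPKM, beside 8.39 FPKM in replicate 6, while IGF2 was 16.7-fold, H19 8.06-fold and DLK1 51.4-fold higher than in replicate 6. The stromal markers were at 761 FPKM there and 44.6 FPKM in replicate 6, and COL1A1, a fibrillar collagen of stromal cells, was 13.3-fold higher. COL3A1 and COL1A1 made up most of that sum, at 457 and 176 FPKM. LUM, at 97.6 and 73.2 FPKM in the static libraries of Day 12, was at 0.55 FPKM in replicate 5 and 0.32 FPKM in replicate 6. POSTN alone of the stromal markers was lower in replicate 5 than in replicate 6, at 0.70 and 1.02 FPKM. The epicardial markers summed to 139.9 FPKM in replicate 5 and 0.76 FPKM in replicate 6. HMGA2 was 0.86 times its level in replicate 6, and LIN28A and LIN28B were 1.80-fold and 2.57-fold higher. In passaged cells other than replicate 5, IGF2 went from 6.25 to 6.67 FPKM on Day 12 to 28.2 to 60.5 FPKM on Day 16, while the stromal markers were at 33.0 to 44.6 FPKM and then at 24.4 to 39.4 FPKM. The part of stromal cells in any of these differences, that of replicate 5 included, was not tested.

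**Figure D5:**
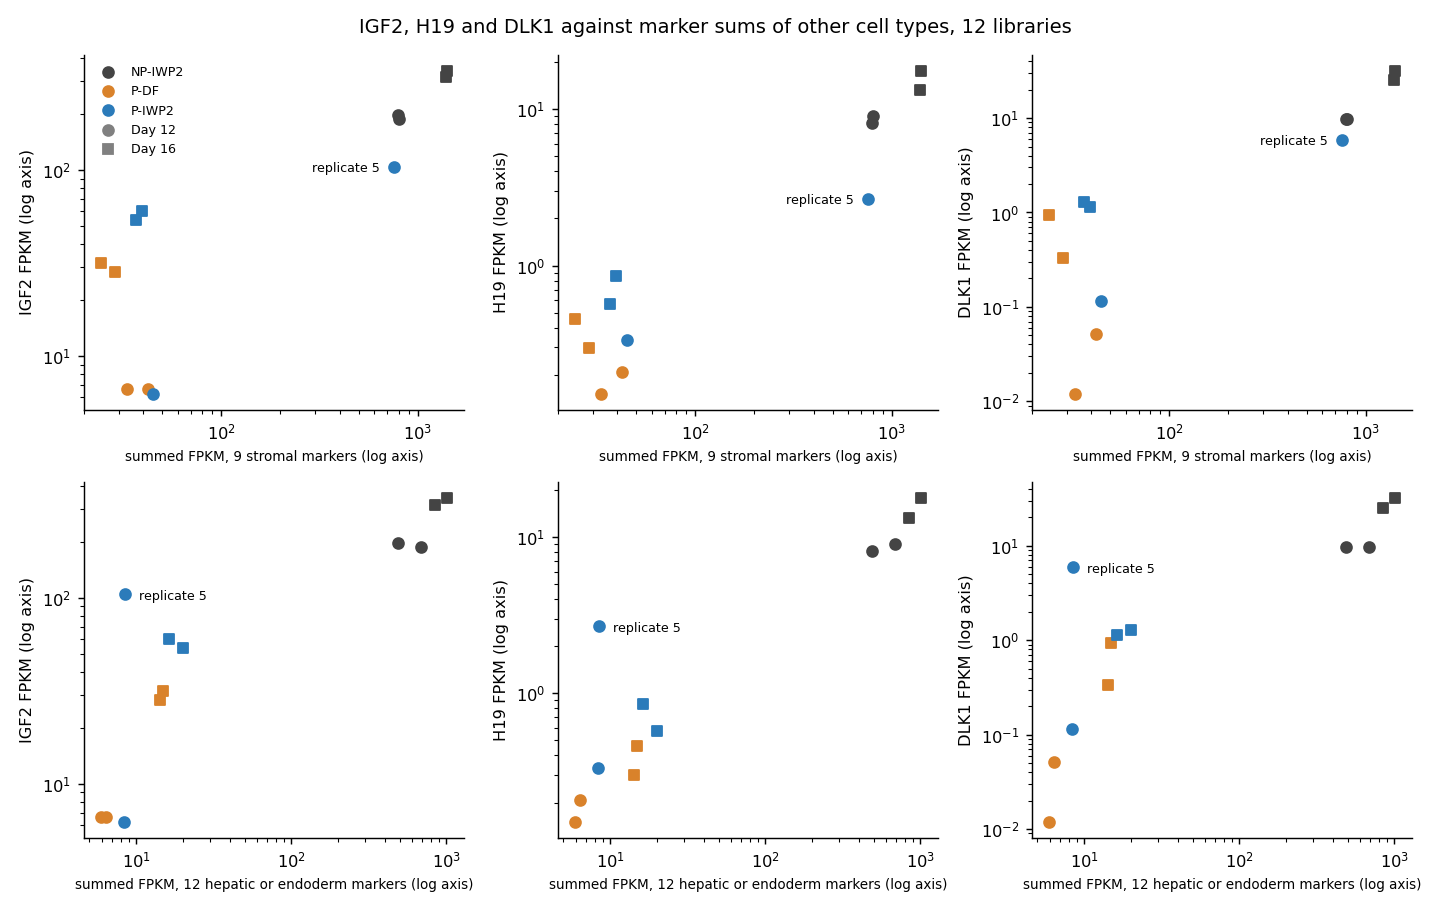
FPKM of IGF2, H19 and DLK1 is plotted against the summed FPKM of 9 stromal markers (top) and 12 hepatic or endoderm markers (bottom) on log axes, with 1 point per library, circles for Day 12 and squares for Day 16. Replicate 5 lies beside the static libraries on the stromal axis, at 761 FPKM, and beside the passaged libraries on the hepatic axis, at 8.45 FPKM.

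Of all genes, 4.01% and 15.3% were called in P-DF on Day 12 and Day 16, and 1.66% and 17.1% in P-IWP2. Without replicate 5 these shares were 23% and 34.1% in P-DF and 36.4% in P-IWP2 on Day 16. In the model of both days the share was 34.4%. All hepatic or endoderm markers (12 of 12) were lower in P-DF on both days and in P-IWP2 on Day 16, and 11 were in P-IWP2 on Day 12. Of 9 stromal markers, 8 were lower in P-DF on either day, 9 in P-IWP2 on Day 16 and 2 in P-IWP2 on Day 12, and the last count was 8 without replicate 5. Of 6 epicardial markers, 6 were lower in both passaged groups on Day 16, and on Day 12 2 were lower in P-DF and 1 in P-IWP2, or 5 in each without replicate 5. Of 6 endothelial markers, TEK alone was lower in both passaged groups on Day 16, but 6 in P-DF and 4 in P-IWP2 were without replicate 5. On Day 12, 3 endothelial markers were lower in P-DF and 0 in P-IWP2 (edgeR), and without replicate 5 there were 5 in each. Of 10 cardiomyocyte markers, 5 were higher and 1 lower in P-DF on Day 16, and 4 higher and 1 lower in P-IWP2, which became 9 higher and 1 lower in each without replicate 5. Of 8 cell cycle markers, 0 were called in the 4 comparisons with edgeR (on Day 16, 0 in P-DF and 2 in P-IWP2 had an unadjusted p under 0.05), up to 3 without replicate 5, and 4 were lower in P-DF in the model of both days. Of the pluripotent markers on Day 16, DPPA4 was lower in P-DF (-3.79 ± 0.78, adjusted p = 0.013, edgeR) and P-IWP2 (-2.71 ± 0.72, adjusted p = 0.032). ZFP42 was lower in P-DF (-5.21 ± 0.97, adjusted p = 0.0088) and P-IWP2 (-2.50 ± 0.72, adjusted p = 0.043), and TDGF1 was not called. Counts of P-IWP2 on Day 12 without replicate 5 rest on a single P-IWP2 library. The part of these markers in the differences of IGF2, H19 and DLK1 was not tested.

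Other imprinted genes were read in the same way. Of 20 imprinted growth genes outside the 10, 18 were tested. On Day 16, 9 were lower and 0 higher in P-DF, with a median of -0.69 against -0.015 for all genes, and 8 were lower and 1 higher in P-IWP2, with a median of -0.53 against -0.030. On Day 16, 15.3% of all genes were called in P-DF (9.86% lower) and 17.1% in P-IWP2 (9.95% lower). On Day 12, 3 were lower in P-DF (3.32% of all genes called lower) and 2 in P-IWP2 (1.33%). Without replicate 5, 12 were lower and 1 higher in P-DF on Day 16 (34.1% of all genes called), and 8 were lower and 1 higher in P-IWP2 (36.4%). On Day 12, 6 were then lower in P-DF (23% of all genes called). The medians were the same with the genes at 0 counts set to their bound. This could not have moved them, because only DIO3 was affected and it stayed far below the median.

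DIO3, which encodes a thyroid hormone deiodinase and lies in the DLK1 domain, had 94 and 40 counts in NP-IWP2 on Day 16 and 0 in all 4 passaged libraries. It was at least 43.4-fold lower in P-DF and 47.3-fold lower in P-IWP2, with 3 counts over the group as the floor. RTL1, a retrotransposon-derived gene of the same domain, had 22 and 12 counts in static cells and 0 or 1 in passaged ones. MEG8 had 0 counts in every library and MEG9 at most 4, so the maternally expressed RNAs of that domain were near or at 0 in every group.

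PHLDA2, a growth-restraining gene near IGF2 on chromosome 11, had 31 and 45 counts in NP-IWP2 on Day 16, 1 and 0 in P-DF, and 1 and 1 in P-IWP2. The ratios, scaled to library totals, were 73.8 (95% exact counting interval 12.8 to 2951) and 40.3 (10.8 to 339). Both DIO3 and PHLDA2 passed the test in both passaged groups, with adjusted p of 0.0071 and 0.0036 in P-DF and 0.0066 and 0.0042 in P-IWP2 (edgeR). RTL1 passed as well, at 0.031 and 0.027.

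In the IGF signaling list, 14 of 18 genes were tested, and 3 were higher and 3 lower in each passaged group on Day 16, where 15.3% and 17.1% of all genes were called. Without replicate 5, 4 were higher and 7 lower in each, where 34.1% and 36.4% of all genes were called. IGFBP3, the main carrier of IGF in serum, fell from 90.2 and 87.7 FPKM in NP-IWP2 to 4.76 and 6.34 FPKM in P-DF (-3.77 ± 0.48, adjusted p = 0.0017, edgeR) and 7.86 and 9.53 FPKM in P-IWP2 (-3.07 ± 0.47, adjusted p = 0.0036). IGFBP4, an inhibitory binding protein, was at 18.3 and 21.9 FPKM against 2.68 and 2.01 FPKM in P-DF (-2.87 ± 0.31, adjusted p = 0.00078). INSR, the insulin receptor, through which IGF2 can also signal, rose from 6.67 and 4.59 FPKM to 12.9 and 12.3 FPKM in P-DF (1.38 ± 0.21, adjusted p = 0.0040) and 10.2 and 10.6 FPKM in P-IWP2 (1.15 ± 0.21, adjusted p = 0.0077). PAPPA2, a protease that cleaves IGF-binding proteins, was higher in both (1.92 ± 0.56, adjusted p = 0.047, and 1.85 ± 0.55, adjusted p = 0.049). The median of the list on Day 16 was -0.64 for P-DF and -0.77 for P-IWP2, against -0.015 and -0.030 for all genes. In P-DF on Day 12, 0 were higher and 2 lower (4.01% of all genes called), or 4 and 6 without replicate 5 (23%). P-IWP2 had 1 higher and 2 lower on Day 12 (1.66% of all genes called).

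Of 12 symbols in the list of genes that process let-7, 10 were tested, among them DROSHA, DICER1 and the uridylyltransferases TUT4 and TUT7, which work with LIN28. None was called in passaged against static cells on either day with edgeR (on Day 16, 0 in P-DF and 3 in P-IWP2 had an unadjusted p under 0.05), and the medians on Day 16 were -0.17 in P-DF and -0.16 in P-IWP2. Without replicate 5, 2 were higher in P-DF on Day 12 (23% of all genes called) and 3 lower in P-IWP2 on Day 16 (36.4%). The model of both days called 1 higher and 2 lower in P-DF (34.4% of all genes). Of the host genes that carry let-7 in their transcripts, 4 of 7 were tested and 0 were called on Day 16 with edgeR, 1 of them at an unadjusted p under 0.05 in P-DF. When replicate 5 was left out, 1 was higher and 1 lower in P-DF on Day 16 (34.1% of all genes called). In P-IWP2 on Day 16, 1 was then lower (36.4%). On Day 12, 1 was higher and 1 lower in P-DF (4.01% of all genes called) and 1 was higher in P-IWP2 (1.66%). The model of both days called 1 higher and 1 lower in P-DF (34.4% of all genes).

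The list of 24 let-7 targets, which includes LIN28B, HMGA2 and the 3 IGF2BP genes, had 3 higher and 2 lower in P-DF on Day 16 and 3 higher and 3 lower in P-IWP2, with medians of 0.063 and -0.070 against -0.015 and -0.030 for all genes. These counts lie near the 15.3% and 17.1% of all genes called. Without replicate 5 they were 5 higher and 3 lower in P-DF (34.1% of all genes called) and 7 higher and 5 lower in P-IWP2 (36.4%). MYC was lower in P-DF (-1.84 ± 0.24, adjusted p = 0.0018, edgeR) and P-IWP2 (-1.23 ± 0.23, adjusted p = 0.0089). MYCN was higher in P-DF (0.95 ± 0.25, adjusted p = 0.035), and CDC34, a ubiquitin-conjugating enzyme, was higher in P-IWP2 (0.67 ± 0.19, adjusted p = 0.044). LIN28B and MYC, both targets, were thus lower while INSR, also on the list, was higher. In P-DF on Day 12, 0 targets were higher and 1 lower (4.01% of all genes called), or 3 and 5 without replicate 5 (23%). P-IWP2 had 0 called on Day 12 (1.66% of all genes).

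Genes with the most similar profile were found by Pearson correlation of log2 CPM over the 12 libraries, which share treatments and depth, so that these values are descriptive. IGF2 and DLK1 were each among the 3 genes nearest to the other (r = 0.98), with ITGA1 near both (0.99 and 0.97), KIRREL1 near IGF2 (0.98) and LAMA3 near DLK1 (0.97). H19 was nearest to PDGFRB (0.99), which is on the stromal list, SPARC (0.99) and TM4SF1 (0.98), and its correlation with IGF2 was 0.93. LIN28A was nearest to GPM6A (0.97), FUCA1 (0.95) and ATP1B3 (0.95), and LIN28B to SEMA3C (0.99), KCNN1 (0.99) and EML4 (0.99). The correlation of LIN28A with LIN28B was 0.83.

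HMGA2 was nearest to CSF1 (0.94), SH2B3 (0.93) and KLF13 (0.92). IGF2BP1 was nearest to ADAMTS15 (0.97), WDR62 (0.96) and MSN (0.95), IGF2BP2 to TMBIM6 (0.88) and RAP1AP (0.83), and IGF2BP3 to EXO1 (0.94), SRSF3 (0.93) and RPL6P27 (0.92). IGF2BP1 followed IGF2 at 0.91 although its own range was narrow, whereas IGF2BP2 and IGF2BP3 did so at 0.13 and 0.29.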

How the data were processed

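RNA-seq of 12 libraries was analysed from 1 table of the series. The authors trimmed reads with cutadapt 1.9.1, aligned them to hg38 with HISAT2 2.0.1 and counted them on genes with HTSeq 0.6.1, per the submitters' processing notes, which also name DESeq2. The annotation release and the strand setting are not given in the sources used here. The table holds raw read counts by Ensembl ID, as deposited, and FPKM values that the authors derived from them, which match counts scaled to exon length and library total within 0.005. Counts of a gene rest on 14885589 to 19176239 counts per library. Of 61757 gene IDs shared with GENCODE release 44, 98.12% have the same position, and 20417 genes have no symbol. The labels name a low-input cDNA kit and a long-read library kit for the libraries.

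The tests used edgeR 4.0.16 and R 4.3.3 (TMM, filterByExpr with 19505 genes left, quasi-likelihood test, Benjamini-Hochberg adjusted p of 0.05 over all genes) in a model of 6 groups, or of 8 libraries with the day as a term (17909 genes). SE is the absolute log2 fold change divided by the square root of F. Alternatives were DESeq2 1.42.0, no filter, library totals, limma 3.58.1 (voom with quality weights), models of only the groups compared, a replicate block, and each library left out in turn. The steps were tested on simulated data. The 10 genes and all lists were chosen with earlier results of these data known. Named list genes are the 3 with the largest called change in each Day 16 comparison with NP-IWP2, and those named for similarity are the 3 with the highest correlation, of which 1 is not reported here; POU5F1, NANOG, COL1A1, DROSHA, DICER1, TUT4, TUT7, MEG8, MEG9 and the overlapping genes were named after their values were seen. Intervals of count ratios are exact and cover counting error only. 3′UTRs are those of GENCODE canonical transcripts, and microRNA sequences are from RefSeq. Figures were drawn with matplotlib 3.10.9.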

Additional observations from a re-analysis of the deposited data

How the results depend on the processing

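Of 108 values for single genes, 24 passed the threshold with all libraries. All 24 kept their call under DESeq2, without the filter on low counts, with library totals and with limma-voom, and 16 of 18 did so in models of only the groups compared. These settings added 13, 32, 6, 18 and 18 calls in that order, and leaving out Day 12 P-IWP2 replicate 5 or 6 added 25 or 32. The number of genes called was within 1.5 times its value in these settings, with the following exceptions. P-IWP2 against NP-IWP2 on Day 12 had 0 and went to 2 (DESeq2) and 5 (no filter). P-IWP2 against P-DF had 0 and went to 2 (DESeq2) and 4 (no filter) on Day 12, and to 1 (DESeq2), 1 (limma-voom), 2 (only the groups compared) and 3 (no filter) on Day 16. Day 16 against Day 12 went from 1 to 6 (limma-voom), 5 (only the groups compared) and 4 (no filter) in NP-IWP2, from 2 to 4 (DESeq2), 5 (limma-voom), 5 (only the groups compared) and 6 (no filter) in P-DF, and from 2 to 4 (library totals), 0 (only the groups compared) and 4 (no filter) in P-IWP2. The interaction with the day went from 0 to 1 (DESeq2), 3 (limma-voom), 4 (only the groups compared) and 3 (no filter) for P-DF, and to 1 (DESeq2) and 3 (no filter) for P-IWP2. The cause was not tested.

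With 1 library left out in turn, the number of genes called ran from 0 to 6 and from 2 to 6 for P-DF against NP-IWP2 on Day 12 and Day 16, from 0 to 5 and from 2 to 6 for P-IWP2 against NP-IWP2, and from 0 to 5 and from 0 to 2 for P-IWP2 against P-DF. It ran from 0 to 5, 1 to 5 and 2 to 5 for the days in static, P-DF and P-IWP2 cells, from 0 to 4 for both interactions, and stayed at 6 for P-DF over both days.

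Replicate numbers are shared between the days of a treatment only. Their deviations correlated at 0.075, -0.002 and -0.031, so libraries of the same number showed no shared offset. With 2 libraries in a group, this cannot tell whether equal numbers came from the same culture. With the number as a replicate block, Day 16 against Day 12 gave 0 called genes for static cells, 1 for P-DF and 2 for P-IWP2, and the interactions gave 0. DLK1 in P-IWP2 changed sign (0.22), as did the P-IWP2 interaction of IGF2 (0.67).

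The log2 value of a gene changed sign 59 times, of which 54 concerned values called in neither setting and 38 an IGF2BP gene. With library totals, which shift all genes, these were IGF2BP3 (-0.037) in P-DF on Day 12, IGF2BP2 (-0.22) in P-IWP2 on Day 16, IGF2BP2 (0.10) and IGF2BP1 (0.11) in P-IWP2 against P-DF on Day 12, and IGF2BP3 (-0.16) in P-DF over both days. From Day 12 to Day 16 they were IGF2BP1 (-0.016) in NP-IWP2, IGF2BP3 (-0.11) and IGF2BP1 (-0.15) in P-DF, and IGF2BP2 (-0.40), IGF2BP3 (-0.33), HMGA2 (-0.32) and IGF2BP1 (-0.22) in P-IWP2. In the interactions they were IGF2BP2 (-0.055) and IGF2BP1 (-0.14) for P-DF and IGF2BP2 (-0.13) and IGF2BP1 (-0.21) for P-IWP2. With limma-voom, DLK1 from Day 12 to Day 16 in P-IWP2 (0.74), the P-IWP2 interaction of IGF2 (0.62) and IGF2BP3 over both days (-0.0043) changed sign, with DESeq2 the P-DF interaction of IGF2BP1 (-0.0058), and with no filter IGF2BP3 over both days (-0.026).

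Leaving out 1 library changed the sign of the following, given as ranges. In P-DF against NP-IWP2 these were IGF2BP3 on Day 12 (-0.054 to 0.14), IGF2BP2 on Day 16 (-0.043 to 0.0115) and IGF2BP3 over both days (-0.061 to 0.028). In P-IWP2 against NP-IWP2 they were LIN28B on Day 12 (-1.005 to 0.13) and IGF2BP2 (-0.0081 to 0.12) and IGF2BP3 (-0.20 to 0.026) on Day 16. In P-IWP2 against P-DF they were IGF2BP2 (-0.037 to 0.043), IGF2BP3 (-0.066 to 0.13), HMGA2 (-0.15 to 0.41), IGF2BP1 (-0.13 to 0.11) and IGF2 (-0.085 to 3.75) on Day 12 and IGF2BP3 (-0.15 to 0.071) and LIN28B (-0.29 to 0.0205) on Day 16. From Day 12 to Day 16 in P-IWP2 they were IGF2BP2 (-0.052 to 0.080), H19 (-1.37 to 1.41), IGF2BP3 (-0.0275 to 0.20), HMGA2 (-0.13 to 0.31), IGF2 (-0.34 to 3.50) and DLK1 (-1.77 to 3.68). In the interactions they were IGF2BP1 (-0.030 to 0.046) for P-DF, and H19 (-2.34 to 0.44), LIN28A (-0.62 to 0.27), IGF2BP1 (-0.0099 to 0.23), IGF2 (-1.24 to 2.60) and DLK1 (-3.42 to 2.02) for P-IWP2. Depth limits MEG3, RTL1 and PHLDA2, which had few or 0 counts in passaged cells. A fold change with 1 library in a group assumes that it varies like the others.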
